A study of Mus musculus with 12 samples.

Results

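Translation factors are the proteins that load messenger RNA and the initiator tRNA onto the ribosome and then move the ribosome along the message. The 56 genes described here are the eukaryotic initiation factor (Eif) and elongation factor (Eef) genes of the deposited table, taken as every entry whose symbol starts with EIF or EEF and a digit, out of 16425 genes in all. The 4 kinase genes of the Eif2ak family and 1 pseudogene, Eif4a-ps4, share that start and were left out, and Eif2s3y is not listed. All 56 genes matched the mouse annotation GENCODE M21, and all 56 passed the filter on low values (at least 0.5 CPM in at least 3 libraries), so none was lost before testing.

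RNA was read from wild-type mouse embryonic fibroblasts (MEFs), connective tissue cells grown from embryos, after 24 h in 0.5 µM doxorubicin, a drug that breaks DNA and activates the transcription factor p53. In one group a guide RNA targeted the p53 response element in Pvt1, the DNA site that p53 binds in this long noncoding RNA gene next to Myc (called sgPVT1 below). The other carried a non-targeting guide (called sgTom). Each guide had 3 biological replicates, numbered 1 to 3, and both guides are in wild-type cells treated alike. Each guide is a single one, so effects of the guide sequence itself cannot be told apart from targeting of the site, and untreated cells were not analysed here.

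Initiation runs in steps. The factors eIF1, eIF1A and the multi-subunit eIF3 open the small ribosomal subunit, eIF2 delivers the initiator tRNA and is recharged by eIF2B, and eIF4E, eIF4G and eIF4A bind the cap of the message and unwind it. Small inhibitors, the 4E-binding proteins, compete with eIF4G for eIF4E. During elongation eEF1A brings in tRNAs, eEF2 moves the ribosome, and eIF5A helps it past difficult stretches of peptide. Several of these genes are known in other systems as targets of Myc, a transcription factor that promotes growth.

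The libraries held 50091418 to 66132317 reads in genes. Pvt1, which checks the guide labels, stood at 8.04, 5.93 and 5.40 CPM with sgPVT1 in replicate order, against 16.4, 11.7 and 12.1 CPM with sgTom, and Myc at 43.5, 48.6 and 53.8 CPM, against 28.7, 27.0 and 35.6 CPM. Neither gene's groups overlapped. Both passed the threshold in limma with replicate number as a block (adjusted p = 0.00014 and 0.000549 over all genes), not without the block (adjusted p = 1.0 for both), and not with the block and no variance trend (0.249 and 0.835). The 9 fibroblast markers were all listed, with a summed level of 37291 to 38342 CPM with sgPVT1 and 38443 to 38975 CPM with sgTom. Fn1 weighed most in that sum, with a mean of 21020 CPM. By log2 fold change 3 markers lay above 0 and 6 below. Pdgfra was lower without overlap, at 29.6, 30.25 and 31.4 CPM with sgPVT1, against 37.7, 32.0 and 39.2 CPM with sgTom. Its limma adjusted p was 0.538 with the block. Thy1 was lowest in replicate 1 of both guides, at 222, 391 and 371 CPM with sgPVT1, against 190, 428.5 and 409 CPM with sgTom. The 12 macrophage markers were all listed too, and their sum was highest in replicate 1 of both guides (328 CPM with sgPVT1 and 211 CPM with sgTom, against 99.0 and 126 CPM in the other sgPVT1 libraries and 106 and 124 CPM in the other sgTom libraries). Their part in the results was not tested.

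The translation factor genes differed little between the guides. None of the 56 passed the threshold of 0.05 on the adjusted p in limma, either without the block or with it, and none passed at an unadjusted p under 0.05 without the block. Over all 14440 genes tested, the share called was 0.0% without the block (50 genes at an unadjusted p under 0.05) and 0.0346% with it, so a count of 0 among 56 is what the background gives. At an unadjusted p under 0.05 with the block there were 3 members (5.36%), against 6.68% of all genes. These were Eif5a, Eef1g and Eif4a1, and all 3 lay above sgTom. This count was 2 with the block in edgeR and 1 with the block and no variance trend. With the block it was 2 under median centring and 4 under quantile normalization.

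The members' values leaned slightly upward with sgPVT1, by count of genes mainly in replicates 1 and 3. A fitted log2 fold change above 0 was found for 37 of 56 (66.1%), against 49.7% of all genes, and the median was 0.0134, against -0.0004 over all genes. Within the pairs of libraries with equal numbers, 17 members (30.4%) were higher with sgPVT1 in 3 of 3 pairs, against 14.4% of all genes. Lower in 3 of 3 were 7 (12.5%), against 14.4%. By pair, 36, 29 and 37 of the 56 were higher in replicates 1, 2 and 3, against 7240, 7286 and 7157 of all 14440 genes. The count of fitted values above 0 moved when 1 library was left out of the fit without the block. Leaving out 1 library makes the replicate numbers unequal between the guides. Without sgPVT1 replicate 2, 27 of 56 lay above 0 and the median was -0.0018. Without sgTom replicate 2 these were 42 of 56 and 0.0396. With the block and without replicate 1, 2 or 3 of both guides, 36, 36 and 34 of 56 lay above 0. The summed level of the 56 genes was 17722, 19327 and 18367 CPM with sgPVT1, against 17281, 18922 and 17868 CPM with sgTom, which is 1.02 to 1.03 times its partner in each pair.

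**Figure D1:**
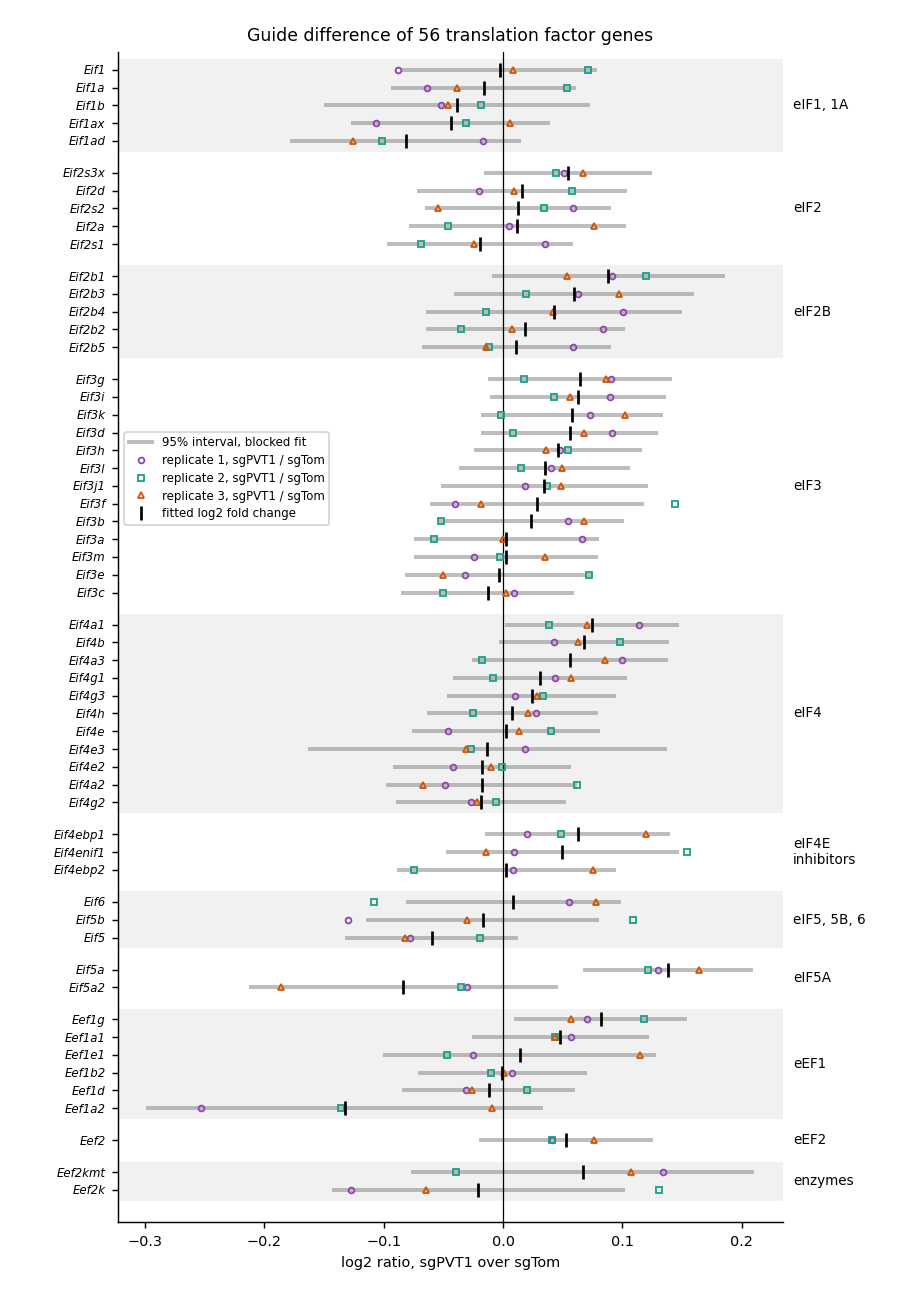
Log2 ratio of sgPVT1 over sgTom for each of the 56 genes (rows, grouped by role), with 1 open symbol per replicate pair, a black bar for the fitted log2 fold change and a grey line for the 95% interval of the limma fit with the replicate block. Nearly all symbols lie within 0.2 of 0, and Eif5a has the highest fitted value, 0.14.

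The intervals around the guide differences were narrower within pairs. With the block, the 95% interval of the log2 fold change lay within 0.2 of 0 for 52 of 56 members and within 0.3 for all 56. Without the block these counts were 23 and 48. The intervals are for single genes, with no adjustment for the number of genes. Those with the block rest on 2 residual degrees of freedom and on the variance trend, without which Pvt1 and Myc did not pass. They were not computed without the trend. The median standard error of a member was 0.0749 without the block and 0.0349 with it, against 0.117 and 0.0597 over all genes. The members are among the well-read genes, with between 411 and 443389 reads per gene and library.

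Eif5a, the gene of the elongation factor that carries the amino acid hypusine, had the largest fitted value. It stood at 425, 431 and 484 CPM with sgPVT1, against 388, 396 and 432 CPM with sgTom. Each sgPVT1 library was above its partner, at 1.09, 1.09 and 1.12 times, yet the groups overlapped, since sgTom replicate 3 exceeded the sgPVT1 values of replicates 1 and 2. The log2 fold change was 0.14 (SE 0.0808, and 0.0319 with the block). The limma adjusted p over all genes was 1.0 without the block and 0.538 with it (unadjusted 0.00097). Leaving out replicate 2 of both guides, in the blocked fit, brought the limma adjusted p to 0.0424, in a setting that also called 160 genes over the whole table. Eif5a (ENSMUSG00000078812.10) lies on chromosome 11 from 69916714 to 69921958 on the minus strand in mm10.

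Its paralog Eif5a2 was much lower and leaned the other way, at 20.6, 15.5 and 14.4 CPM with sgPVT1 and 21.1, 15.9 and 16.5 CPM with sgTom. It was lower in 3 of 3 pairs, with a log2 fold change of -0.08 (SE 0.167). Per kilobase of transcript, Eif5a averaged 311 ± 22.6 with sgPVT1 and 282 ± 16.2 CPM with sgTom, and Eif5a2 averaged 3.35 ± 0.660 and 3.54 ± 0.565 CPM (SD, n = 3 each).

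**Figure D2:**
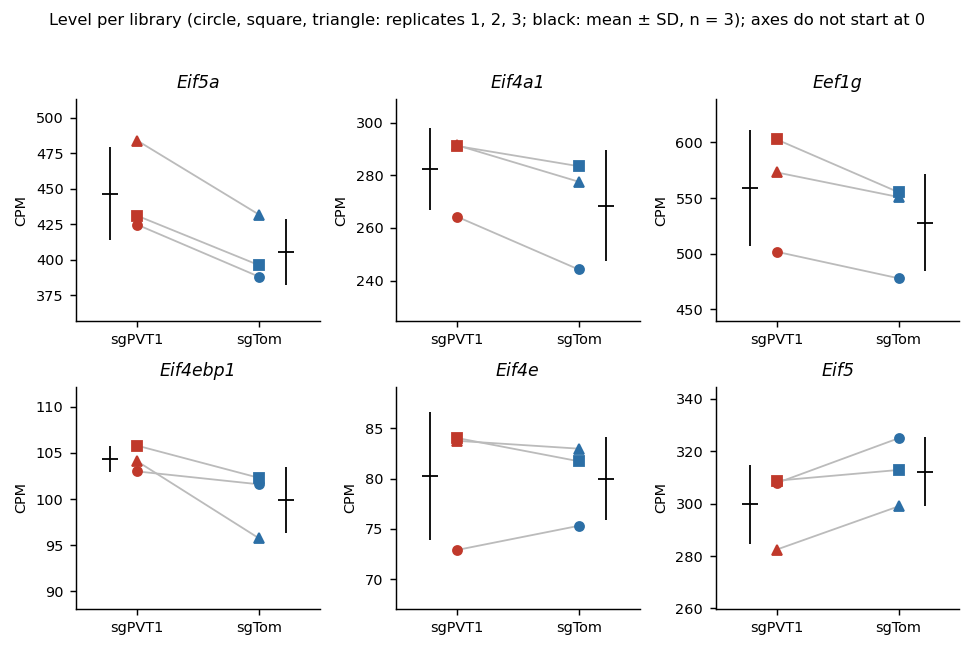
CPM per library for 6 genes, with sgPVT1 on the left and sgTom on the right of each panel, lines joining equal replicate numbers, and the mean ± SD in black (axes do not start at 0). Eif5a, Eif4a1, Eef1g and Eif4ebp1 are higher with sgPVT1 in 3 of 3 pairs, Eif5 is lower in 3 of 3, and Eif4e crosses.

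Among the cap-binding group, 7 of 11 genes lay above 0 and 4 below. Eif4a1, the RNA helicase that unwinds the start of the message, stood at 264, 291 and 291.5 CPM with sgPVT1, against 244, 283.5 and 278 CPM with sgTom. It was higher in 3 of 3 pairs while the groups overlapped (log2 fold change 0.07, limma adjusted p = 0.738 with the block). Eif4a-ps4, a pseudogene of the Eif4a family that the rule leaves out, stood at 19.0, 20.8 and 21.0 CPM with sgPVT1 and 15.8, 18.1 and 19.99 CPM with sgTom, and how reads that match both copies were shared is not given in the sources used here.

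Eif4b, a helper of that helicase, stood at 243, 271 and 244 CPM with sgPVT1, against 236, 253 and 233.5 CPM with sgTom, and was higher in 3 of 3 pairs (log2 fold change 0.07). Eif4e, which binds the cap itself, did not move in 1 direction. It stood at 72.9, 84.0 and 83.8 CPM with sgPVT1, against 75.3, 81.7 and 83.0 CPM with sgTom (log2 fold change 0.002, 95% interval -0.07 to 0.08 with the block). Eif4a3, a related helicase of the complex that marks spliced junctions, stood at 82.9, 85.9 and 82.7 CPM with sgPVT1, against 77.4, 87.0 and 77.9 CPM with sgTom.

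The most abundant transcript of this group by CPM was Eif4g2, a relative of eIF4G that does not bind eIF4E, at 798.5, 852 and 806 CPM with sgPVT1, against 814, 856 and 818 CPM with sgTom. It was lower in 3 of 3 pairs by at most 0.03 on the log2 scale, and Eif4e2, a cap-binding repressor, was also lower in 3 of 3. Eif4g1, the scaffold, averaged 785 ± 46.3 and 768 ± 42.6 CPM (sgPVT1 and sgTom, SD, n = 3 each). The remaining members Eif4a2, Eif4e3, Eif4g3 and Eif4h had log2 fold changes between -0.02 and 0.02.

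All 3 listed genes of eIF4E-binding inhibitors lay above 0, and Eif4ebp3 is not listed. Eif4ebp1, the inhibitor whose grip on eIF4E is released by mTOR, was the only member whose groups did not overlap: 103, 105.8 and 104 CPM with sgPVT1, against 102, 102 and 95.7 CPM with sgTom. That is 1 member of 56 (1.79%), against 2.15% of all genes with non-overlapping groups and sgPVT1 higher, and no member had non-overlapping groups with sgPVT1 lower, against 1.47% of all genes. The difference was small (log2 fold change 0.06, limma adjusted p = 1.0 without the block and 0.758 with it), and the pair of replicate 3, with the lowest sgTom value, had the largest ratio. Eif4ebp2 stood at 48.7, 48.4 and 51.7 CPM with sgPVT1, against 48.4, 51.0 and 49.1 CPM with sgTom, and Eif4enif1, which carries eIF4E into the nucleus, at 44.0, 49.1 and 45.6 CPM, against 43.7, 44.1 and 46.0 CPM.

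The letters CACGTG, the E-box that Myc and its partner Max can bind and its own reverse complement, were looked for in the RefSeq promoter windows of the members (GRCm38.p6, 250 bases before to 50 after each annotated start). A window was present for 45 of the 56, and 12 of these (26.7%) held the letters at least once, against 8.09% of the 27025 genes of the RefSeq table and 11.5% of the 10504 tested genes with a window. The stretches below, from genes whose values are given here or that carry the cap-binding and translocation steps, show the letters in capitals and read 5′ to 3′ on the gene's strand.
Eif5a (chr11:69921428-69921487, minus strand): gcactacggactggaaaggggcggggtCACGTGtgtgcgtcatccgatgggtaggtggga
Eif5a, at a second annotated start (chr11:69920791-69920820, minus strand): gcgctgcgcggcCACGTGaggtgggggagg
Eif4a1 (chr11:69672580-69672639, minus strand): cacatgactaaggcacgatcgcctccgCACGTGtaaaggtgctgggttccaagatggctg
Eif4g1 (chr16:20672646-20672705, plus strand): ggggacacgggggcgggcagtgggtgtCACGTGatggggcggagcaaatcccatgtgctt
Eif4e (chr3:138527192-138527221, plus strand): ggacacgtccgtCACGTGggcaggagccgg
Eef2 (chr10:81176561-81176620, plus strand): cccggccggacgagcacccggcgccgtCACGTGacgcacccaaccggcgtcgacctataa

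The letters started between 24 and 228 bases upstream of an annotated start in 11 of the genes, Eif3a having its only match downstream of the start and Eif4g1 a second one there. The members with the letters did not stand apart by their guide difference. Of the 12, 9 lay above 0 with a median log2 fold change of 0.02, and of the 33 with a window and no match 22 did, with a median of 0.01. Over all tested genes the medians were 0.004 with the letters and -0.0004 without. A match is a run of letters and not a measured binding site.

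The genes of eIF3, the large scaffold around the small ribosomal subunit, leaned upward as a group, least in replicate 2. Of 13 genes, 11 lay above 0 and 2 below, with a median log2 fold change of 0.03 (range -0.01 to 0.06). Over all genes tested, 49.7% lay above 0. Higher in 3 of 3 pairs were 6 of the 13, against 14.4% of all genes, but 0 passed the threshold in limma with or without the block. By pair, 10, 8 and 11 of the 13 were higher in replicates 1, 2 and 3. Their summed level was 2346, 2478 and 2499 CPM with sgPVT1, against 2282, 2485.5 and 2445 CPM with sgTom. In replicate 2 the sum was thus lower with sgPVT1. Eif3g stood at 88.4, 95.8 and 94.3 CPM with sgPVT1, against 83.0, 94.6 and 88.8 CPM with sgTom, and Eif3i at 112, 114 and 118.5 CPM, against 105.6, 110.3 and 114 CPM. Both are peripheral subunits of the complex, and each was higher in 3 of 3 pairs while its groups overlapped.

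Eif3k, a small subunit that budding yeast lacks, stood at 153, 168 and 164 CPM with sgPVT1, against 146, 168 and 153 CPM with sgTom. Eif3a, the subunit with the highest CPM, showed no direction, at 452, 463 and 487 CPM with sgPVT1, against 431, 482 and 487 CPM with sgTom. The 2 genes below 0 were Eif3c (-0.01) and Eif3e (-0.003). Of the other subunits, Eif3d, Eif3h, Eif3j1 and Eif3l were higher in 3 of 3 pairs, with log2 fold changes between 0.03 and 0.06, while Eif3b (0.02), Eif3f (0.03) and Eif3m (0.003) were not. Exons of Eif3d overlap the antisense gene Gm17638 over 43.3% of their length, and the strand setting of the counting is not given in the sources used here.

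All 5 eIF2B genes, whose products recharge eIF2 with GTP and are the point at which stress signals block initiation, lay above 0, with a median log2 fold change of 0.04. Eif2b1 stood at 30.8, 35.0 and 32.6 CPM with sgPVT1, against 28.9, 32.2 and 31.4 CPM with sgTom, and Eif2b3 at 31.6, 29.9 and 29.9 CPM, against 30.3, 29.5 and 27.9 CPM. These 2 were higher in 3 of 3 pairs (log2 fold changes 0.09 and 0.06). Eif2b4 stood at 25.5, 27.9 and 26.5 CPM with sgPVT1, against 23.7, 28.2 and 25.7 CPM with sgTom, and Eif2b5, the catalytic subunit, at 72.3, 75.6 and 72.0 CPM, against 69.4, 76.3 and 72.7 CPM. Eif2b2 had a log2 fold change of 0.02. In replicate 2, only 2 of the 5 genes were higher with sgPVT1.

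Of the eIF2 subunits and the factors that can deliver tRNA in their place, 4 of 5 lay above 0 with a median log2 fold change of 0.01. Eif2s1, the alpha subunit that stress kinases phosphorylate, stood at 97.4, 100.8 and 106 CPM with sgPVT1, against 95.1, 105.8 and 108 CPM with sgTom. Eif2d, an alternative initiation factor, stood at 38.5, 51.2 and 47.3 CPM with sgPVT1, against 39.1, 49.2 and 47.0 CPM with sgTom. Replicate 1 was the lowest for both genes and both guides. Eif2a and Eif2s2, the beta subunit, each had a log2 fold change of 0.01.

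Eif2s3x, the X-linked gene of the gamma subunit, differed far more by replicate number than by guide. It stood at 306, 207 and 197 CPM with sgPVT1, against 295, 200.4 and 188 CPM with sgTom, so that replicate 1 of each guide was above all 4 other libraries. The guide difference was 0.05 on the log2 scale (higher in 3 of 3 pairs, limma adjusted p = 1.0 without the block and 0.766 with it), while the test for replicate number gave a limma adjusted p of 2.28e-07. Eif2s3x is known to escape X inactivation in the mouse, and its Y-linked partner Eif2s3y is not listed. Replicate 1 was also highest, with either guide, for 4 other X-linked genes known to escape, which were named after their values were seen. This pattern was common: both replicate 1 libraries were above the other 4 for 137 of 457 X-linked genes tested (29.98%), against 25.73% of all 14440 genes tested. It was also seen for the X-linked member Eif1ax, with a smaller fold between the highest and lowest replicate number (1.09, against 1.56 for Eif2s3x). X-linked Gspt2, a release factor gene, showed it too, at 10.3, 7.67 and 7.19 CPM with sgPVT1 and 9.83, 7.90 and 7.47 CPM with sgTom. It was not seen for X-linked Mcts1, at 25.4, 27.8 and 25.4 CPM with sgPVT1 and 25.5, 26.8 and 27.3 CPM with sgTom. Kdm5c stood at 138, 89.5 and 94.1 CPM with sgPVT1, against 123, 88.5 and 90.9 CPM with sgTom, and Pbdc1 at 33.7, 19.5 and 19.0 CPM, against 33.2, 19.9 and 18.5 CPM. For Ddx3x, an RNA helicase that itself acts in initiation, the values were 402, 322 and 304 CPM with sgPVT1 and 412, 329 and 310.4 CPM with sgTom. Kdm6a stood at 35.3, 27.3 and 27.4 CPM with sgPVT1 and 37.5, 26.0 and 28.3 CPM with sgTom.

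**Figure D3:**
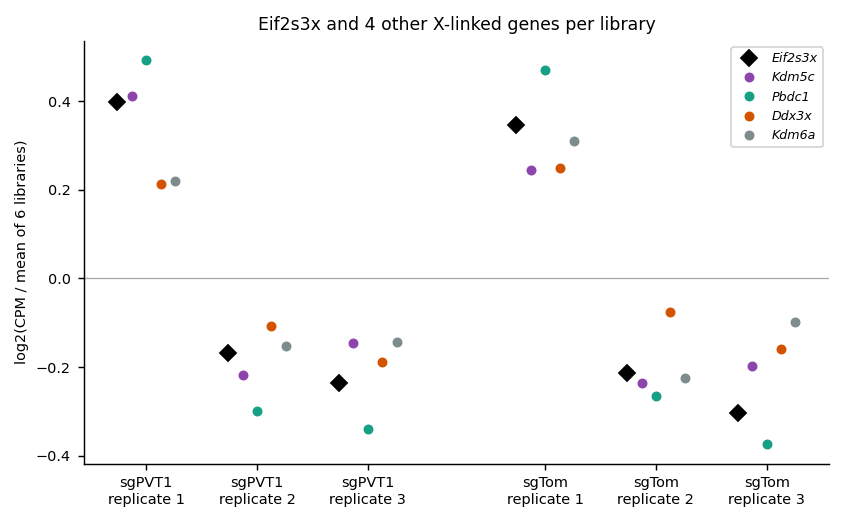
Log2 of CPM over the gene's mean of 6 libraries, per library, for Eif2s3x (black diamonds) and 4 other X-linked genes (coloured circles), with sgPVT1 left and sgTom right. All 5 genes are above their mean in replicate 1 of both guides and below it in replicates 2 and 3.

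The genes of eIF1 and eIF1A, small proteins that scan for the start codon, were the only group of 3 or more with no member above 0. All 5 lay below, with a median log2 fold change of -0.04, and none passed the threshold in limma with or without the block (smallest adjusted p = 0.754 with it). Eif1 stood at 243, 230.1 and 217 CPM with sgPVT1, against 258, 219 and 215 CPM with sgTom, lower in only 1 of 3 pairs. Eif1ad, a relative of eIF1A, stood at 36.7, 32.7 and 35.6 CPM with sgPVT1, against 37.1, 35.2 and 38.9 CPM with sgTom, and was lower in 3 of 3 (log2 fold change -0.08). Eif1b, a close copy of Eif1, was also lower in 3 of 3 pairs, at 23.3, 20.9 and 19.3 CPM with sgPVT1, against 24.2, 21.1 and 19.9 CPM with sgTom. Eif1ax stood at 67.3, 63.3 and 66.5 CPM with sgPVT1, against 72.5, 64.7 and 66.2 CPM with sgTom, and its near copy Eif1a had a log2 fold change of -0.02. How reads shared by such copies were counted is not given in the sources used here.

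Eif5, which triggers GTP hydrolysis by eIF2 at the start codon, was lower with sgPVT1 in 3 of 3 pairs. It stood at 308, 309 and 282.5 CPM with sgPVT1, against 325, 313 and 299 CPM with sgTom (log2 fold change -0.06, limma adjusted p = 0.757 with the block). Eif5b, which joins the large ribosomal subunit, stood at 126, 152 and 144 CPM with sgPVT1, against 138, 141 and 147 CPM with sgTom. Eif6, which keeps the subunits apart, stood at 117, 112 and 135 CPM with sgPVT1, against 113, 120.3 and 127 CPM with sgTom. Neither Eif5b nor Eif6 kept 1 direction over the pairs.

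The elongation factor genes carried most of the summed level. Eef1a1, the carrier of tRNA to the ribosome, made up between 33.1% and 34.6% of the members' total in each library. It stood at 5989, 6690 and 6096 CPM with sgPVT1, against 5756, 6490 and 5916 CPM with sgTom, and Eef2 at 2578, 3076 and 2825 CPM, against 2505, 2990 and 2680 CPM. Both were highest in replicate 2 of each guide and higher with sgPVT1 in 3 of 3 pairs (log2 fold changes 0.05 and 0.05, limma adjusted p = 0.811 and 0.787 with the block). Eef1g, a subunit of the exchange factor that recharges eEF1A, stood at 502, 603 and 573 CPM with sgPVT1, against 478, 555 and 551 CPM with sgTom. It was higher in 3 of 3 pairs with overlapping groups (log2 fold change 0.08, limma adjusted p = 0.705 with the block). The other exchange factor genes Eef1b2 and Eef1d, and Eef1e1, a protein of the tRNA synthetase complex, had log2 fold changes of -0.0007, -0.01 and 0.01. Eef1a1 has many processed pseudogenes, and how reads shared with them were counted is not given in the sources used here. Without Eef1a1 and Eef2, the summed level of the 54 other members was still 1.01 to 1.02 times its partner in each pair.

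Eef1a2, the eEF1A isoform known from muscle and nerve, was the lowest eEF1 gene and varied most. It stood at 8.10, 12.4 and 6.04 CPM with sgPVT1, against 9.75, 13.7 and 6.08 CPM with sgTom, lower in 3 of 3 pairs (log2 fold change -0.13, SE 0.347). Replicate 2 was highest and replicate 3 lowest for both guides, and the muscle marker Des, the intermediate filament desmin, had the same order, at 34.4, 43.7 and 28.3 CPM with sgPVT1 and 35.9, 47.8 and 28.3 CPM with sgTom. The order was not particular to these genes. Members such as Eef1b2, Eif2a and Eif3m had it too, with smaller folds, and its share over all genes was not counted. Myog and Myod1 are not listed. The neural markers had other orders. Map2, a neuronal microtubule protein, was lowest in replicate 2, at 26.2, 13.9 and 18.5 CPM with sgPVT1 and 23.0, 13.6 and 16.2 CPM with sgTom. Tubb3, a neuronal tubulin, was lowest in replicate 1, at 34.4, 59.3 and 69.0 CPM with sgPVT1 and 35.5, 68.4 and 62.7 CPM with sgTom. Whether other cell types bear on Eef1a2 was not tested. Fewer cells of a type and less RNA per cell cannot be told apart in such bulk samples.

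The enzymes that modify elongation factors were among the low members. Eef2k, the kinase that halts eEF2, stood at 27.1, 32.7 and 25.2 CPM with sgPVT1, against 29.6, 29.8 and 26.4 CPM with sgTom. Eef2kmt, an eEF2 methyltransferase, stood at 12.5, 13.6 and 12.7 CPM with sgPVT1, against 11.4, 14 and 11.8 CPM with sgTom. Neither kept 1 direction over the pairs.

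**Figure D4:**
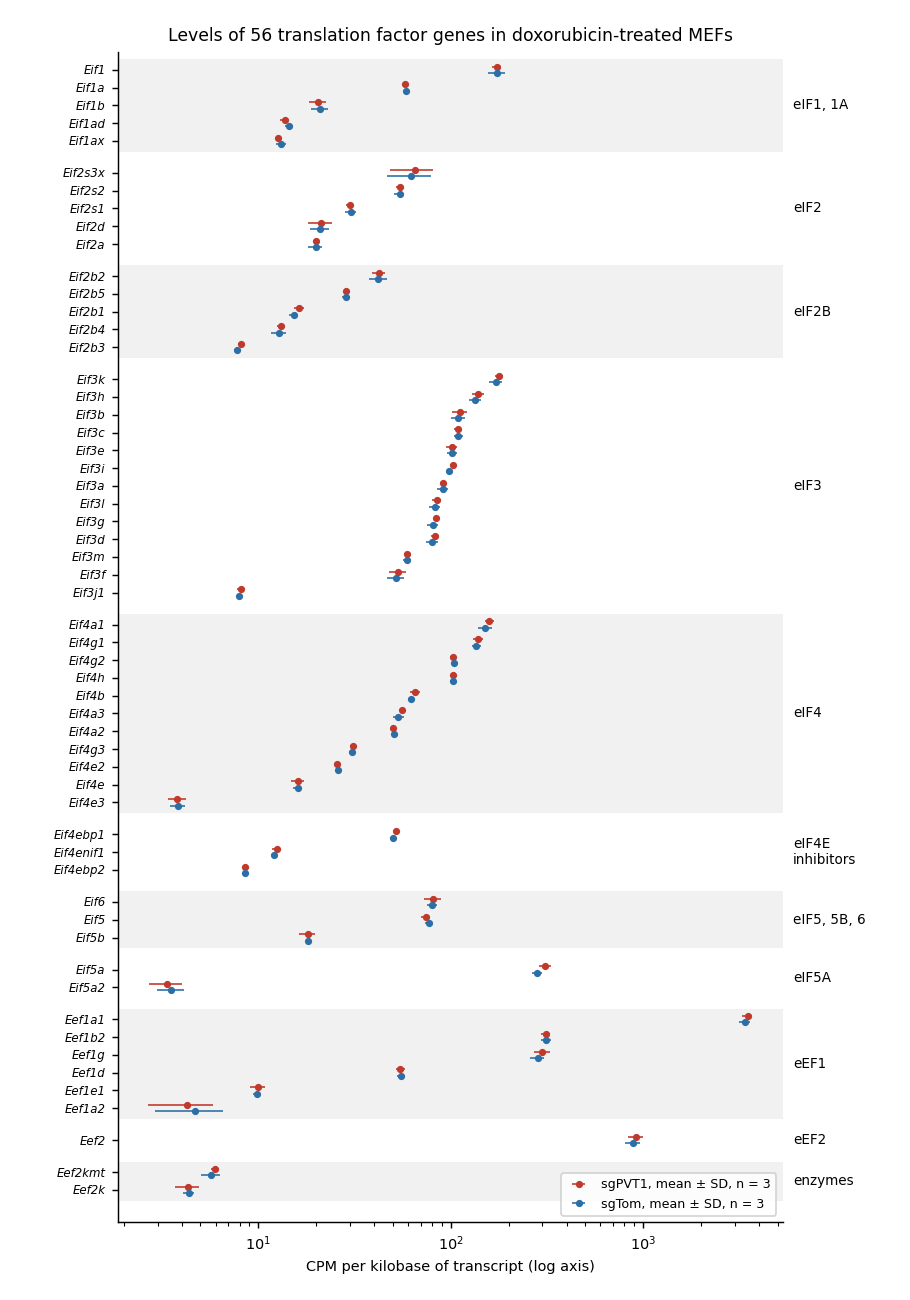
Mean level of each gene in CPM per kilobase of its longest complete protein-coding transcript (log axis), ± SD over 3 libraries, with sgPVT1 (red) above sgTom (blue) in each row and genes grouped by role. Eef1a1 is highest at 3489 with sgPVT1 and 3375 with sgTom, and the guides differ far less than the genes do.

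Per kilobase of transcript the order of levels was steep. Eef1a1 led at 3489 ± 211 with sgPVT1 and 3375 ± 215 CPM with sgTom, followed by Eef2 at 915 ± 80.6 and 882 ± 79.5 CPM (SD, n = 3 each). Eef1b2, Eif5a and Eef1g came next at 312, 311 and 300 CPM per kilobase with sgPVT1 and 312, 282 and 283 CPM with sgTom. These neighbours lay within 1 SD of each other with sgPVT1, while with sgTom Eef1b2 was above the other two by more than the SD of any of them. Eif3 genes were close to each other: 12 of the 13 lay between 53.1 and 178 CPM per kilobase with sgPVT1 and between 52.1 and 171 CPM with sgTom, and Eif3j1, whose product binds loosely, was at 8.17 and 7.98 CPM. Eif4e stood at 16.08 and 16.03 CPM per kilobase, below its inhibitor Eif4ebp1 at 52.2 and 50.0 CPM and its partner Eif4g1 at 139 and 136 CPM (means with sgPVT1 and with sgTom). The lowest were Eif4e3, at 3.78 and 3.82 CPM per kilobase, and Eif5a2. Levels per kilobase assume 1 transcript per gene, and with all annotated exons as the length Eif3e moved to rank 33 of 56 where it had rank 15.

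Replicate number separated the members more than the guide did. In the limma test for replicate number, 33 of 56 members (58.9%) passed the threshold, against 48.6% of all genes. The count fell to 11 without replicate 1 of both guides and 19 without replicate 3. In both of these fits the members' share was slightly below that of all genes, whose counts are given further below. For 51 of 56 members, the fold between the highest and lowest replicate number was larger than the largest fold between the guides within any pair. This count was not made over all genes, so it cannot be read as a trait of the members. The fold between replicate numbers was 2.15 for Eef1a2, 1.56 for Eif2s3x, 1.35 for Eif5a2 and 1.29 for Eif2d. The 5 exceptions, named after their values were seen, were Eif1a, Eif4a2 and the 3 inhibitor genes Eif4ebp1, Eif4ebp2 and Eif4enif1.

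**Figure D5:**
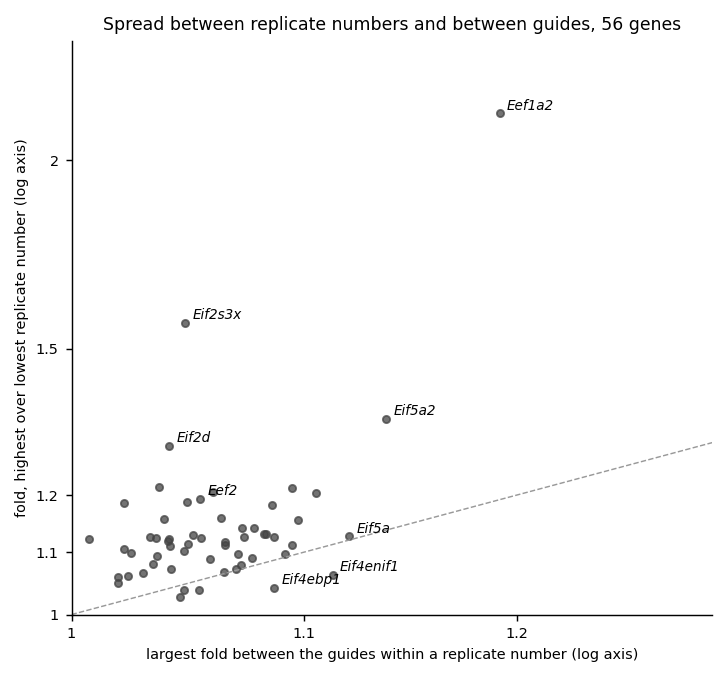
Each point is 1 of the 56 genes, with the largest fold between the guides within a replicate number on the x axis and the fold between the highest and lowest replicate number on the y axis (both log axes of different length). Points above the dashed line of equal folds vary more by replicate number than by guide, as 51 of 56 do, a count not made over all genes.

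Genes of the translation machinery outside the members, chosen as release factors, poly(A)-binding proteins, kinases and modifying enzymes, showed a like lean. Of 40 listed, 27 lay above 0 and 13 below, with a median log2 fold change of 0.01, and 0 passed the threshold in limma with or without the block. By pair, 24, 22 and 25 of the 40 were higher with sgPVT1 in replicates 1, 2 and 3. Pabpc1, the poly(A)-binding protein that joins the ends of the message, stood at 828, 934 and 854 CPM with sgPVT1, against 810, 852 and 802 CPM with sgTom. Pabpc4 stood at 100.4, 114.5 and 106 CPM with sgPVT1, against 96.9, 108 and 99.7 CPM with sgTom. The ribosomal scaffold gene listed as Gnb2l1 stood at 313, 380 and 332.5 CPM with sgPVT1, against 303, 347 and 310.4 CPM with sgTom. These 3 had the smallest p of the list with the block (limma adjusted p = 0.705, 0.738 and 0.678) and were higher in 3 of 3 pairs.

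The members were also grouped by regulation described in other systems, with lists that overlap the values given above and were not tested against the other members. The lists were chosen with earlier results of these data known, so their counts are description only. Of 10 members whose messages carry the 5′ terminal oligopyrimidine tract read by mTOR signalling, 6 lay above 0 and 5 were higher in 3 of 3 pairs, with a median log2 fold change of 0.04, and 1 (Eef1g) had an unadjusted p under 0.05 with the block. Of 5 described as Myc targets, 4 lay above 0 and 2 were higher in 3 of 3 pairs, with a median of 0.03. The same 2 (Eif5a and Eif4a1) had an unadjusted p under 0.05 with the block. Eef1g, Eif5a and Eif4a1 are the same 3 members already named above for such an unadjusted p. Over all genes, 49.7% lay above 0, 14.4% were higher in 3 of 3 pairs and 6.68% had such an unadjusted p. None of the members on these lists passed the threshold in limma with or without the block. In the authors' deposited table, the false discovery rate of the guide effect was 1 for all 56 members, and their p-values ran from 0.328 to 0.995.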

How the data were processed

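Polyadenylated RNA of 6 doxorubicin-treated libraries was used; the 6 untreated samples of the series were not analysed here. The kit was TruSeq Stranded mRNA, per the labels' protocols. The submitters' processing notes name edgeR 3.22.3, HTSeq 0.6.1, StringTie 1.2.4 and TopHat2 2.0.14, and the build mm10, without role, order or strand setting. The deposited values are CPM per gene and library, made by the authors with edgeR per the file headers, beside the authors' log2 fold change, p-value and false discovery rate. A further 6 per-sample columns of pseudo-counts were not used, and 2 entries naming no gene were removed. They held 0.543% to 1.58% (ambiguous) and 8.06% to 8.94% (outside genes) of the reads; the second share was higher with sgPVT1 in each pair.

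CPM divided by the worth of 1 read gave whole reads within 0.01 for 100% of values in genes. The main test was limma 3.58.1 (trend, robust) on log2(CPM + 0.5), over the 14440 genes reaching 0.5 CPM in 3 or more libraries, Benjamini-Hochberg adjusted. Fold changes are on that scale, sgPVT1 over sgTom. Equal replicate numbers pair the libraries: their deviations correlated at 0.869, 0.739 and 0.817 across genes, other pairs at most at 0.203. The deviations are from each guide's own mean, so the low values of the other pairs are partly set by the calculation. A fit with replicate number as a block stands beside the main test (2 residual degrees of freedom, against 4). Alternatives included edgeR 4.0.16 and DESeq2 1.42.0 on the recovered reads and were run on all genes. P-values cover the spread between these replicates. Counts of any 2 libraries differed by more than sampling noise.

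Members and lists were chosen with earlier results of these data known. Values per library are given, by role, for the members that passed or did not overlap, the most abundant, up to 3 with the smallest p with the block, and always for Eif5a, Eif4ebp1, Eif4e, Eif4a1, Eif2s3x, Eef1a1 and Eef1a2. The others are given by range or level. Promoter windows and transcript lengths come from RefSeq (GRCm38.p6) and GENCODE M21.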

Additional observations from a re-analysis of the deposited data

How the results depend on the processing

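Over 22 alternatives, no called value changed direction, and 747 of 748 comparisons of the 34 members given per library kept their side of the threshold. The exception was Eif5a without replicate 2 of both guides in the blocked fit (log2 fold change 0.147, limma adjusted p = 0.0424; 0.0424 to 1.0 over its alternatives), a fit with 1 pair fewer. Leaving out libraries gave 0 to 1 called members, 0 to 160 called genes and a member median of -0.0018 to 0.0396. The sign of the fitted value changed at least once for 20 of the 34, all in values that did not pass, and stayed for 14. Genes called over the table, 0 in the main fit, were 1 with DESeq2, 5 with the replicate block, 5 with the block in edgeR, 5 with the block and quantile normalization and 4 with the block and median centring. The last 2 were chosen after seeing the data, as was the test of replicate number. In these fits with the block, Pvt1 and Myc passed, at -0.999 and 0.673 with the block, -1.06 and 0.677 in edgeR, -0.994 and 0.672 with quantile normalization, and -1.0001 and 0.672 with median centring. Pvt1 also passed in DESeq2 without the block (-1.05). With the block and without replicate 1, 2 or 3 of both guides, the genes called were 8, 160 and 9, the member median 0.0254, 0.0287 and 0.0182, Pvt1 -1.01, -1.04 and -0.953, and Myc 0.713, 0.592 and 0.715. Leaving out single libraries gave -1.16 to -0.849 for Pvt1 and 0.594 to 0.790 for Myc. For replicate number, the same 3 fits called 11, 33 and 19 members and 3068, 7027 and 5046 genes. The block changed no call of a member. The causes were not tested. The 95% interval lay within 0.1 of 0 on the log2 scale for 20 of the 56 members with the block and for 0 without it.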

Other observations

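The kinases that phosphorylate eIF2 under stress, whose symbols share the start of the members' names, were measured in the same libraries. Eif2ak2, the kinase activated by double-stranded RNA, stood at 60.2, 60.5 and 69.6 CPM with sgPVT1, against 50.7, 61.8 and 72.2 CPM with sgTom, so that the guides differed in replicate 1 and hardly in the others. Eif2ak3, the kinase of the endoplasmic reticulum, was lower with sgPVT1 in 3 of 3 pairs, at 56.5, 44.6 and 42.1 CPM, against 57.4, 48.9 and 43.6 CPM with sgTom (log2 fold change -0.07, limma adjusted p = 0.763 with the block). Eif2ak1 and Eif2ak4 had log2 fold changes of -0.03 and 0.02. None of the 4 passed the threshold in limma with or without the block.

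Factors of translation inside mitochondria, which use their own ribosomes, lay above 0 in 7 of 12 listed cases, with a median log2 fold change of 0.04, and 0 passed. Guf1, the mitochondrial back-translocase, stood at 7.75, 6.93 and 6.61 CPM with sgPVT1, against 7.83, 5.03 and 6.60 CPM with sgTom. Tufm, the mitochondrial counterpart of eEF1A, stood at 80.8, 91.2 and 95.3 CPM with sgPVT1, against 81.4, 95.3 and 91.0 CPM with sgTom. The macrophage markers had a median log2 ratio of 0.57 in the pair of replicate 1, and of -0.05 and -0.02 in the pairs of replicates 2 and 3.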
